A study of Drosophila melanogaster with 4 samples.

Results

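The genes described here are the cytochrome P450 (Cyp), glutathione transferase (Gst) and glucuronosyl transferase (Ugt) genes of the fruit fly Drosophila melanogaster, measured in heads after feeding with the antiepileptic drug levetiracetam. They were gathered by a name rule, and the families were chosen with earlier results of these data known. The rule takes every spot whose gene symbol starts with Cyp or Ugt and a digit. It also takes those starting with GstD, GstE, GstO, GstS, GstT or GstZ. The array carried 108 such genes, 73 Cyp, 23 Gst and 12 Ugt, among 6793 named genes. The RefSeq gene table of the fly holds 157 genes under the same name rule, of which 87 are Cyp, 35 Gst and 35 Ugt, so the Ugt family was the least covered. The name rule also caught Cyp40, a cyclophilin and no P450, and the pseudogenes Cyp6a15Psi and Cyp6a16Psi. None of these 3 had a value on any array, so they enter the counts of genes on the array and no result. Only 24 of the 108 had a value on at least 3 of the 4 arrays and could be tested.

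Both groups were Oregon-R wild type males, described as unmated in the labels, and heads were the tissue. The treated flies ate food with 5 mg/ml levetiracetam for 3 days and the control flies stayed on normal food, after 7 days on normal food in both cases. Flies were kept in vials of 30. RNA came from 8 pools of heads in 4 parallel sets of 1 treated and 1 control pool, and each set was hybridised to 1 two-colour spotted cDNA array, so the 4 arrays are 4 biological replicates of 1 comparison. Treated RNA carried the red dye Cy5 in replicates 1 and 2 and the green dye Cy3 in replicates 3 and 4, the dye swaps. The sources disagree on age: the sample labels say 3 to 4 days, while the design text has males of 7 to 10 days going onto the drug food. The time that males were kept after collection also varies in the labels, with 2 to 3 days for the control channel of replicate 1 and the levetiracetam channel of replicate 4 and 10 to 11 days for every other channel.

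Cytochrome P450s are haem enzymes that insert oxygen into lipophilic molecules, both foreign compounds and the fly's own hormones and fatty acids. Glutathione transferases couple reactive molecules to the tripeptide glutathione, and glucuronosyl transferases (in insects mostly using glucose) attach a sugar, which makes the products easier to excrete. Many of these genes are inducible by drugs and plant toxins in the gut, Malpighian tubules and fat body, and fly heads hold fat body next to the brain and eyes. In humans levetiracetam is cleared largely through the kidney and by hydrolysis of its amide group, with little part for liver P450s.

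Values were sparse for all 3 families. Of the 108 genes, 51 had no value on any array, 19 had one on 1 array, 14 on 2, 8 on 3 and 16 on all 4. The share with a value on at least 3 arrays was 22.2%, against 33.3% of all named genes. Counted by features, the spot pairs of the array, the gap was wider, at 14.3% (25 of 175) against 31.6% of all named features. It was highest for Gst, at 30.4% (7 of 23 genes), followed by Cyp at 21.9% (16 of 73, or 22.9% of the 70 without the cyclophilin and the pseudogenes), and was 8.33% for Ugt (1 of 12). A missing value means that the spot failed the authors' filters, among them those on signal to noise, saturation and flags. It is therefore a statement about signal on these slides and not about absence of the transcript.

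Coverage also differed between branches of each family. Among the glutathione transferases, 4 of 7 GstE genes could be tested, against 2 of 10 GstD genes, 1 of 2 GstT genes and none of the 2 GstO and 2 GstZ genes. Among the P450s, 6 of 20 Cyp4 genes and 3 of 20 Cyp6 genes could be tested, with 2 of 6 Cyp12, 2 of 6 Cyp9, 1 of 6 Cyp313 and 1 of 3 Cyp28 genes and the single Cyp304 gene. The Cyp6 and GstD branches, which hold many of the genes known for insecticide resistance, were therefore mostly out of reach. The 5 Gst genes with values on 2 arrays were GstD8, GstD11, GstE2, GstE3 and GstT3, and no Gst gene was left at 1 array.

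**Figure D1:**
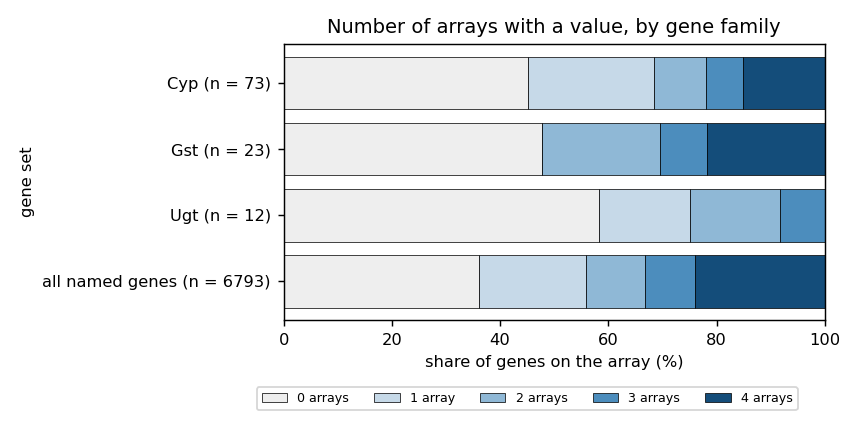
Share of genes on the array (horizontal axis, %) with a value on 0, 1, 2, 3 or 4 arrays, for the Cyp (n = 73), Gst (n = 23) and Ugt (n = 12) genes and for all 6793 named genes. The 2 darkest segments, genes with a value on at least 3 arrays, make up 21.9%, 30.4%, 8.33% and 33.3% of the 4 bars.

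All values below are log2 ratios, where 1 stands for a doubling, and are given as levetiracetam over normal food. Neither the labels nor the file say which channel is the numerator. Because channel 1 is Cy5 on all 4 arrays, Cy5 over Cy3 was assumed, so the sign of replicates 3 and 4 was turned, and this direction is likely rather than certain. Values as deposited, which would be right if the swapped arrays had been turned before deposit, are given beside the mean of each gene of the 3 families and the summary of each gene list. The arrays did not share a centre: over all spots the medians of the turned values were -0.15, -0.16, 0.079 and 0.31 for replicates 1 to 4, from 8040, 12608, 8286 and 9827 spots. Results with each array centred on its median are therefore given too. Within an array, the paired spots of a tested Cyp, Gst or Ugt gene differed by a median of 0.22, 0.22, 0.31 and 0.25 in replicates 1 to 4, against 0.25, 0.21, 0.22 and 0.24 over all tested features. In pooled heads, fewer cells of a type and less RNA per cell cannot be told apart.

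No Cyp, Gst or Ugt gene passed the test at an adjusted p of 0.05, and neither did any of the 3853 rows tested on the array (0.0%; limma against 0, Benjamini-Hochberg adjustment). At an unadjusted limma p of 0.05, 1 of the 24 genes was called, Cyp28d1, beside 2.6% of all rows (100 of 3853). The mean lay above 0 in 20 of the 24 genes, 14 of 16 Cyp, 6 of 7 Gst and not the single Ugt gene, beside 57.2% of all rows. With arrays centred, 18 of the 24 lay above 0, beside 51.8% of all rows. As deposited, 8 of the 24 lay above 0, beside 20.2%, and the split ran between families: 2 of 16 Cyp genes, 5 of 7 Gst genes and the Ugt gene. With 4 arrays, only large and steady differences could pass, and the number of arrays limits every interval below.

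**Figure D2:**
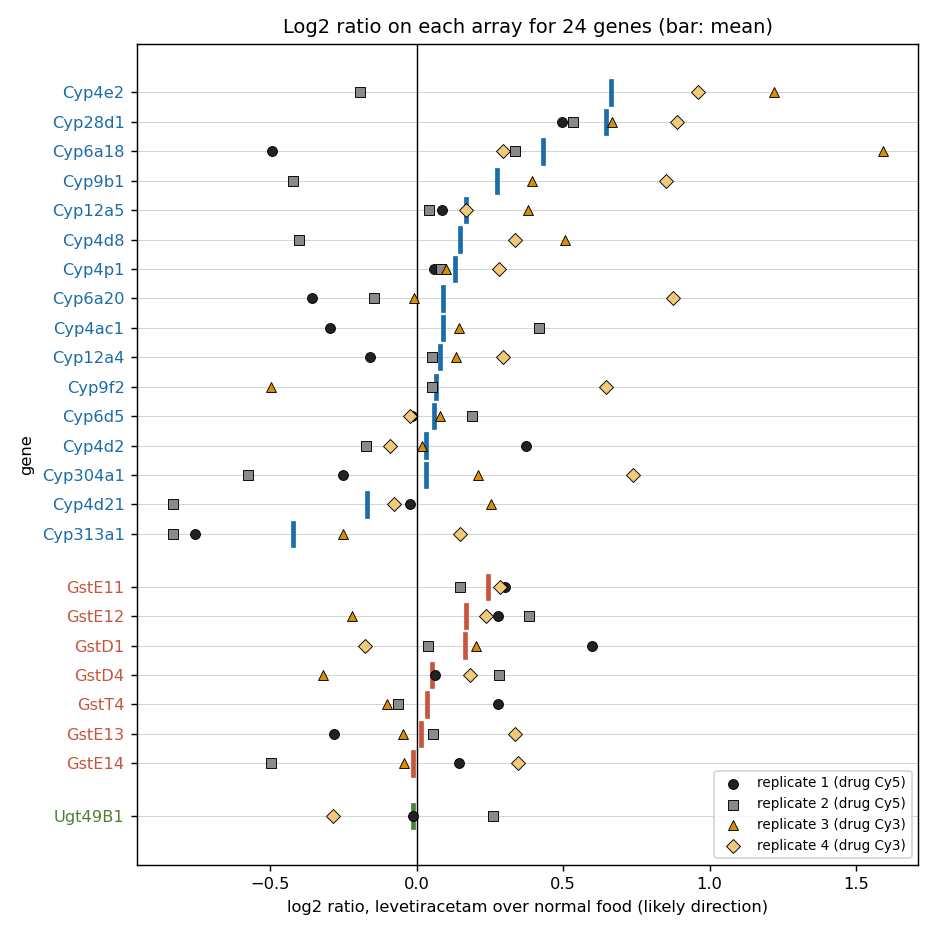
Log2 ratio of levetiracetam over normal food (horizontal axis, likely direction) on each array for the 24 genes with values on at least 3 arrays, ordered by mean within family. Symbols stand for the 4 replicate arrays and bars for the gene's mean. Cyp28d1 has all 4 points between 0.50 and 0.89, while the points of most other genes lie on both sides of 0.

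Cyp28d1 (CG10833), a P450 implicated in nicotine resistance of fly larvae, had the smallest p of the 24 genes. Its log2 ratio was 0.50, 0.53, 0.67 and 0.89 in replicates 1 to 4. Levetiracetam was the higher side on every array in the likely direction. The mean was 0.65 ± 0.18 (SD, n = 4), a 1.57-fold ratio, with a 95% limma interval of 0.29 to 1.00. Its unadjusted limma p was 0.0030, and after adjustment over all 3853 rows it was 1.00, so the gene did not pass the test. Centring brought the arrays closer together, to 0.64, 0.69, 0.59 and 0.58, a mean of 0.63 ± 0.052 (SD, n = 4). After centring, 0.59% of the 2870 rows with values on all 4 arrays had a smaller SD, against 16.62% before centring. Before centring, 0.56% of these rows had a larger mean in size. The gene was singled out by its small p, which reflects mean and SD, so these ranks add no separate support. With arrays centred, its adjusted limma p was 0.475. The paired spots lay close to each other too, at 0.45 and 0.54 in replicate 1 and 0.84 and 0.94 in replicate 4. As deposited, the orientations oppose each other and the mean was -0.13 ± 0.75 (SD, n = 4). Leaving out any 1 array left the mean between 0.57 and 0.70. Values came from 1 of the 3 spot pairs that carry this gene, and its genomic neighbour and paralog Cyp28d2 had a value on 1 array only.

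Cyp12a5 and Cyp4p1 were the other P450 genes above 0 on all 4 arrays, which makes 3 of the 16 genes with 4 values, beside 6.9% of such rows (198 of 2870). None of the 16 lay below 0 on all 4. Cyp12a5 (CG11821), a mitochondrial P450, had log2 ratios of 0.087, 0.042, 0.38 and 0.17, a mean of 0.17 ± 0.15 (SD, n = 4). Cyp4p1 (CG10842) belongs to the Cyp4 branch, whose members elsewhere hydroxylate fatty acids, and had 0.059, 0.083, 0.10 and 0.28, a mean of 0.13 ± 0.10 (SD, n = 4). Both intervals held 0, at -0.18 to 0.52 and -0.21 to 0.47. The first spot of each pair lay below 0 in replicates 1 and 2. It read -0.024 and -0.043 for Cyp12a5 and -0.047 and -0.10 for Cyp4p1, so the common sign there rests on the second spot. With arrays centred, replicate 4 fell to -0.14 for Cyp12a5 and -0.025 for Cyp4p1, so neither kept 1 sign on all 4 arrays. As deposited their means were -0.10 ± 0.21 and -0.059 ± 0.17 (SD, n = 4). Cyp12a4 (CG6042), the direct neighbour of Cyp12a5 and a gene known for lufenuron resistance, had -0.16, 0.052, 0.13 and 0.29, a mean of 0.080 ± 0.19 (SD, n = 4). It was read by 2 spot pairs with means of 0.036 and 0.12, and its deposited mean was -0.13 ± 0.14 (SD, n = 4).

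Cyp313a1 (CG3360) had the lowest mean of the 24 genes. Its log2 ratios were -0.76, -0.83, -0.25 and 0.15, so it was low on 3 arrays and slightly high on replicate 4. In replicate 4 its paired spots read 0.39 and -0.098, so the sign there rests on 1 spot. The mean was -0.42 ± 0.46 (SD, n = 4), a 0.745-fold ratio, with an interval of -0.89 to 0.040. Centring moved replicate 4 below 0, and the centred values were -0.61, -0.67, -0.33 and -0.16, a mean of -0.44 ± 0.24 (SD, n = 4) with an adjusted limma p of 0.961. As deposited the mean was -0.37 ± 0.52 (SD, n = 4), so its direction is the same under both readings of the ratio. Both readings share the values of replicates 1 and 2, so this adds no separate support. Without replicate 4 the mean was -0.61 and without replicate 2 it was -0.29.

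Cyp4e2, Cyp6a18 and Cyp9b1 had the largest means beside Cyp28d1, and in each the highest value came from a swapped array. Cyp4e2 (CG2060), a Cyp4 gene, had no value in replicate 1 and log2 ratios of -0.19, 1.22 and 0.96 in replicates 2 to 4. Its mean was 0.66 ± 0.75 (SD, n = 3), moving to 0.38 without replicate 3 and to 1.09 without replicate 2. As deposited its mean was -0.79 ± 0.53 (SD, n = 3), with an adjusted limma p of 0.152, the smallest of the 24 genes under that reading. The gene was thus higher or lower with levetiracetam depending on which reading of the swapped arrays holds.

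Cyp6a18 (CG13977) had log2 ratios of -0.50, 0.34, 1.59 and 0.30, a mean of 0.43 ± 0.86 (SD, n = 4). In replicate 3 its paired spots read 2.86 and 0.32, so the highest value rests on 1 spot, and without that array the mean was 0.046. Cyp9b1 (CG4485) had -0.42, 0.39 and 0.85 in replicates 2 to 4, a mean of 0.27 ± 0.64 (SD, n = 3). It was read by 2 spot pairs, of which one had a value in replicate 2 only, at -0.87, and the other had a mean of 0.42. That other pair read 0.0255 in replicate 2. The gene's value below 0 there thus rests on the pair with no value on the swaps. The deposited means of Cyp6a18 and Cyp9b1 were -0.51 ± 0.80 (SD, n = 4) and -0.56 ± 0.26 (SD, n = 3).

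Cyp304a1 and Cyp4d8 showed the same division between the orientations with smaller means. Cyp304a1 (CG7241) had log2 ratios of -0.25, -0.57, 0.21 and 0.74, below 0 on both Cy5 arrays and above 0 on both swaps. Its mean was 0.030 ± 0.57 (SD, n = 4), and -0.44 ± 0.26 (SD, n = 4) as deposited. It was the 1 gene of the 16 with 4 values that had the same sign on all 4 arrays as deposited, beside 27.6% of such rows (792 of 2870), so this does not set the gene apart. The paired spots of Cyp304a1 read 0.071 and -0.574 in replicate 1 and -0.024 and 0.440 in replicate 3. On the first spots alone, neither the division nor the common sign held. Cyp4d8 (CG4321) had -0.40, 0.51 and 0.34 in replicates 2 to 4, a mean of 0.15 ± 0.48 (SD, n = 3). As deposited its values were close together, with a mean of -0.41 ± 0.085 (SD, n = 3).

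The other P450 genes lay near 0 or varied between arrays. Cyp6a20 (CG10245), linked to aggression of male flies, had log2 ratios of -0.36, -0.14, -0.011 and 0.87, a mean of 0.090 ± 0.54 (SD, n = 4) that became -0.17 without replicate 4 and was -0.34 ± 0.39 as deposited. Cyp4d21 (CG6730), also called sex-specific enzyme 1 and known from the fat body of male heads, had -0.022, -0.83, 0.25 and -0.076, a mean of -0.17 ± 0.47 (SD, n = 4). Without replicate 2 its mean was 0.051, and as deposited it was -0.26 ± 0.41 (SD, n = 4). Neither gene with a known role in male behaviour thus differed beyond the spread of the arrays. Cyp6d5 (CG3050) had the smallest SD of the 11 P450s with 4 values, with log2 ratios of -0.018, 0.19, 0.079 and -0.021, a mean of 0.057 ± 0.10 (SD, n = 4) and an interval of -0.28 to 0.40. Its deposited mean was 0.029 ± 0.12 (SD, n = 4). The paired spots of Cyp6d5 had opposite signs on every array. They read 0.325, 0.409, 0.336 and 0.097 against -0.360, -0.029, -0.179 and -0.140, so its small values are averages of spots that disagreed. Cyp4d2 (CG3466) had 0.37, -0.17, 0.019 and -0.092, a mean of 0.032 ± 0.24 and a deposited mean of 0.068 ± 0.23 (SD, n = 4). With paired spots averaged, both genes thus lay near 0 under either reading. Cyp4ac1 (CG14032) had -0.30, 0.42 and 0.14 in replicates 1 to 3, a mean of 0.089 ± 0.36 (SD, n = 3), and Cyp9f2 (CG11466) had 0.051, -0.50 and 0.65 in replicates 2 to 4, a mean of 0.066 ± 0.57 (SD, n = 3). As deposited their means were -0.0070 ± 0.38 and -0.033 ± 0.58 (SD, n = 3).

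The 7 glutathione transferases had smaller means than the P450s at the extremes, from -0.013 to 0.24. GstE11 (CG5224), an epsilon-class enzyme, had the highest, with log2 ratios of 0.30, 0.15 and 0.29 in replicates 1, 2 and 4. It lay above 0 on all 3 arrays that measured it, with a mean of 0.24 ± 0.086 (SD, n = 3), a 1.18-fold ratio. With arrays centred, replicate 4 fell to -0.019 and the SD rose to 0.24, so the common sign was lost. The interval was -0.18 to 0.67, and as deposited the mean was 0.054 ± 0.30 (SD, n = 3). GstE12 (CG16936) had 0.28, 0.38, -0.22 and 0.24, a mean of 0.17 ± 0.27 (SD, n = 4). It was above 0 on 3 of 4 arrays and the swapped replicate 3 was the exception, with a deposited mean of 0.16 ± 0.27 (SD, n = 4). In replicate 3 the paired spots of GstE12 read 0.21 and -0.65, so the exception rests on 1 spot. GstD1 (CG10045), a delta-class enzyme that can degrade DDT and is widely used as a reporter of oxidative stress, had 0.60, 0.038, 0.20 and -0.18. Its mean of 0.17 ± 0.33 (SD, n = 4) rested largely on replicate 1, without which it was 0.021. As deposited it was 0.15 ± 0.34 (SD, n = 4).

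GstD4 (CG11512) had log2 ratios of 0.063, 0.28, -0.32 and 0.18, a mean of 0.051 ± 0.26 (SD, n = 4) and 0.12 ± 0.23 as deposited. GstE13 (CG11784) had a mean of 0.016 ± 0.26 (SD, n = 4), and -0.13 ± 0.21 as deposited. GstT4 (CG1681), a theta-class gene, had a mean of 0.036 ± 0.21 (SD, n = 3), and 0.10 ± 0.17 as deposited. None of these separated from 0, and the mean of each had another sign when some 1 array was left out. GstE14 (CG4688), which is Noppera-bo and acts in the synthesis of the moulting hormone ecdysone, had a mean of -0.013 ± 0.36 (SD, n = 4) and a deposited mean of -0.16 ± 0.31. The 7 intervals lay between -0.43 and 0.67. The median SD over arrays was 0.26 for the Gst genes, 0.46 for the Cyp genes and 0.34 for all rows. The neighbours of GstD1 and GstD4 in the GstD cluster had no value on any array, and whether cDNA spots of such close paralogs share signal was not tested.

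Ugt49B1 (CG4302) was the only glucuronosyl transferase with values on 3 arrays. Its log2 ratios were -0.015, 0.26 and -0.29 in replicates 1, 2 and 4, so they lay on both sides of 0. In replicate 4 its paired spots read -0.85 and 0.28, so the lowest value rests on 1 spot. The mean was -0.014 ± 0.27 (SD, n = 3) with an interval of -0.48 to 0.45, and 0.18 ± 0.17 (SD, n = 3) as deposited. Ugt301D1 and Ugt316A1 had a value on 1 array, Ugt305A1 and Ugt37B1 on 2, and the other 7 on none. The data therefore describe 1 gene of this family and not the family.

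**Figure D3:**
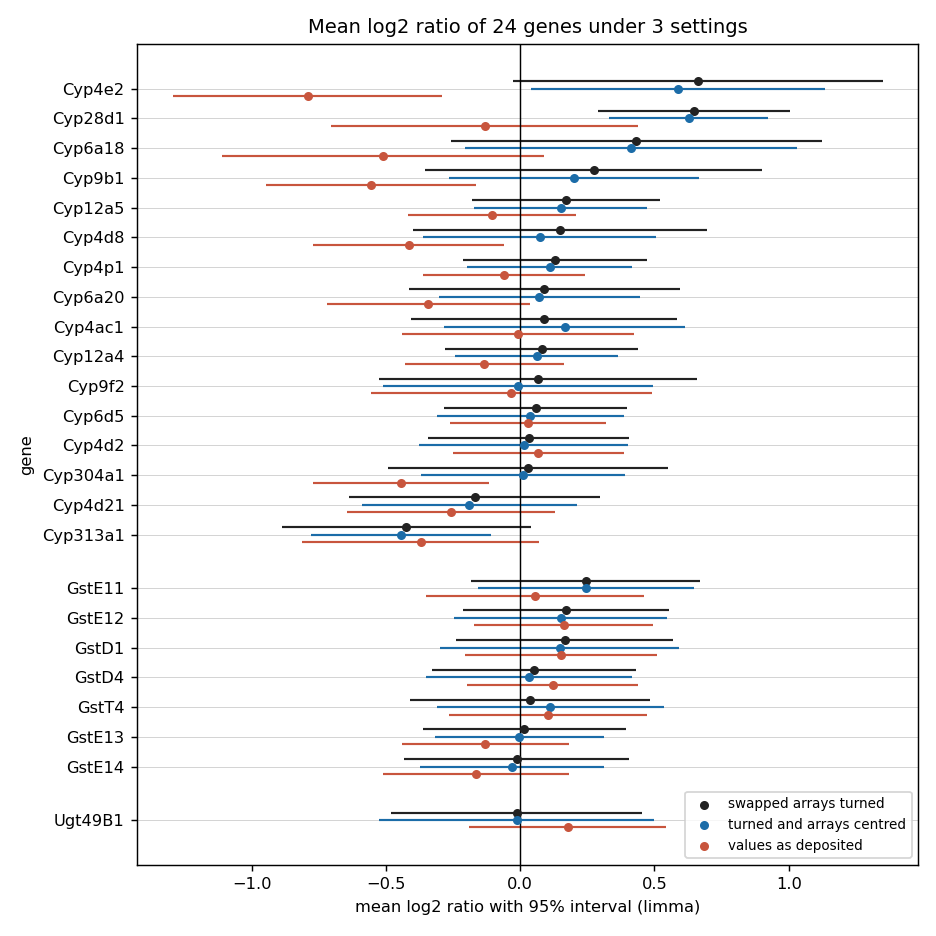
Mean log2 ratio with its 95% limma interval (horizontal axis) of the 24 genes under 3 settings, with swapped arrays turned, turned with arrays centred, and as deposited. Cyp28d1 has an interval above 0 when turned (0.29 to 1.00), and its deposited mean is -0.13. Cyp4e2 moves from 0.66 to -0.79 between the first and the last setting.

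How far the values followed the dyes was read from a term for orientation, the mean of the Cy5 arrays minus the mean of the Cy3 arrays in turned ratios. This term was below 0 in 14 of 16 Cyp genes and in 3 of 7 Gst genes, and above 0 in Ugt49B1. Over all rows it was below 0 in 3057 of 3853, so most of the array shared the direction seen in the P450s. Its unadjusted limma p was under 0.05 for 5 genes, all P450s (Cyp4e2, Cyp304a1, Cyp9b1, Cyp313a1 and Cyp4d8), beside 19.8% of all rows. Cyp4e2, Cyp9b1 and Cyp4d8 had no value in replicate 1, so their Cy5 side was replicate 2 alone. For Cyp9b1 that side also included a spot pair with no value on the swaps. The pair with values in both orientations read 0.0255 in replicate 2. None of the 24 had an adjusted limma p under 0.05, beside 1.14% of all rows, and the smallest was 0.133 for Cyp4e2, whose term was -1.28 with a standard error of 0.35. With arrays centred the term was below 0 in 8 of 16 Cyp genes and in none of the 7 Gst genes, beside 1888 of 3853 rows. The term thus lost its common direction in the P450s once arrays were centred, and took a common direction, above 0, in the glutathione transferases.

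If the values as deposited have the true direction, their mean is the treatment difference. Under that reading, 4 of the 24 genes had an unadjusted limma p under 0.05, beside 19.2% of all rows, and all were P450s with negative means (Cyp4e2, Cyp9b1, Cyp304a1 and Cyp4d8). The Cyp9b1 value in replicate 2 included a spot pair with no value on the swaps. The median over all rows was itself -0.17 as deposited against 0.027 when turned. Relative to each array's own median, 8 of 16 Cyp genes, all 7 Gst genes and the Ugt gene lay above 0 as deposited, 16 of 24 in all, beside 50.5% of rows. With arrays centred and turned, 3 of the 24 genes had an unadjusted limma p under 0.05, all P450s (Cyp28d1, Cyp313a1 and Cyp4e2), beside 4.39% of rows.

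**Figure D4:**
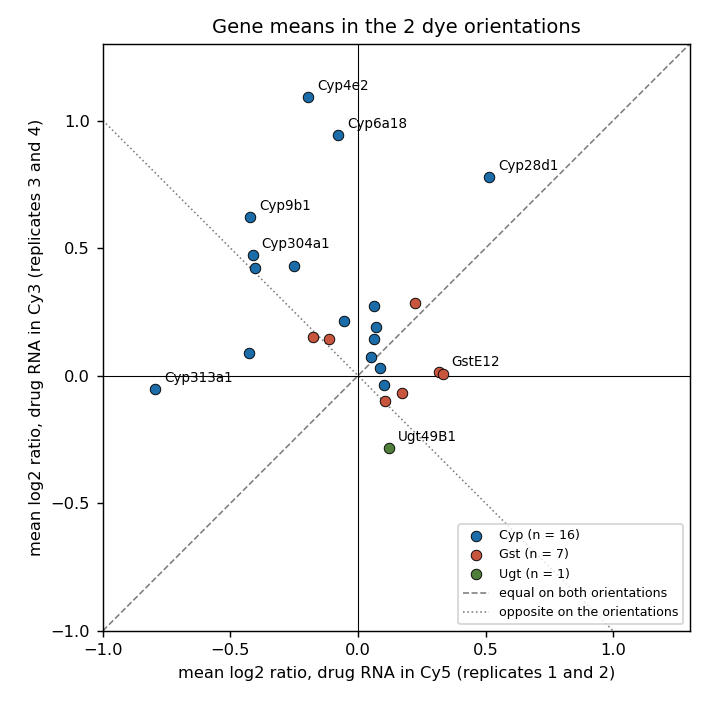
Mean log2 ratio of each gene on the arrays with treated RNA in Cy3 (vertical axis) against that on the arrays with treated RNA in Cy5 (horizontal axis), both as levetiracetam over normal food. Genes on the dashed line are equal in both orientations and genes on the dotted line are opposite. Cyp28d1 lies near the dashed line, while Cyp4e2, Cyp9b1 and Cyp304a1 are above 0 on the Cy3 arrays and below 0 on the Cy5 arrays. Cyp4e2 and Cyp9b1 had no value in replicate 1, so their Cy5 mean is replicate 2 alone. For Cyp9b1 it includes a spot pair with no value on the Cy3 arrays.

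The contrast between P450s and glutathione transferases changed sign with the dye orientation. The mean over the tested Cyp genes was -0.11, -0.12, 0.31 and 0.42 in replicates 1 to 4, and that over the Gst genes was 0.20, 0.049, -0.088 and 0.20. The mean over all rows was -0.15, -0.16, 0.11 and 0.33, so the P450 mean had the sign of the whole array on each, and the glutathione transferase mean had the opposite sign in replicates 1 to 3. In replicates 2 and 3 that opposite sign depended on the spots read. With only the first spot of each pair, the glutathione transferase mean was -0.033 and 0.033 there, beside -0.17 and 0.11 for all rows. Cyp minus Gst was -0.31 and -0.17 on the Cy5 arrays and 0.40 and 0.22 on the swaps. In the likely direction the difference was 0.035 ± 0.33 (SD, n = 4 arrays), far smaller than its spread. As deposited it was -0.27 ± 0.10 (SD, n = 4 arrays), with P450s below glutathione transferases on every array. Centring does not change this difference, since it shifts both families equally. With the median of each slide block subtracted, it was -0.11, -0.17, 0.30 and 0.092, a mean of 0.030 ± 0.21 (SD, n = 4 arrays). Not every gene had a value on every array. For the 11 Cyp and 5 Gst genes with 4 values, Cyp minus Gst was -0.26, -0.17, 0.37 and 0.13. Its mean was then 0.020 ± 0.29 (SD, n = 4 arrays). These differences are descriptions with no test, and genes within a family share arrays and are not replicates.

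Over the 4 arrays the Cyp mean was 0.12 ± 0.28 and the Gst mean 0.090 ± 0.14 (SD, n = 4 arrays), against 0.032 ± 0.23 for all rows. These means depended on single arrays: with 1 array left out the Cyp mean was 0.20 without replicate 1, 0.21 without 2, 0.063 without 3 and 0.027 without 4. The Gst mean was 0.054, 0.10, 0.15 and 0.053 in the same order, and Cyp minus Gst was 0.15, 0.10, -0.086 and -0.026. The medians over genes were 0.089 for Cyp, 0.052 for Gst and 0.027 for all rows, and -0.20, 0.10 and -0.17 as deposited. Cyp minus the single Ugt gene was 0.077 ± 0.56 and Gst minus it 0.16 ± 0.35 (SD, n = 3 arrays), both within their spread. Without replicate 4 the first was -0.24 and the second 0.00086, and without replicate 2 they were 0.30 and 0.35. As deposited these differences were -0.39 ± 0.30 and -0.16 ± 0.35 (SD, n = 3 arrays). The P450 and glutathione transferase families were therefore not separated in the likely direction.

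**Figure D5:**
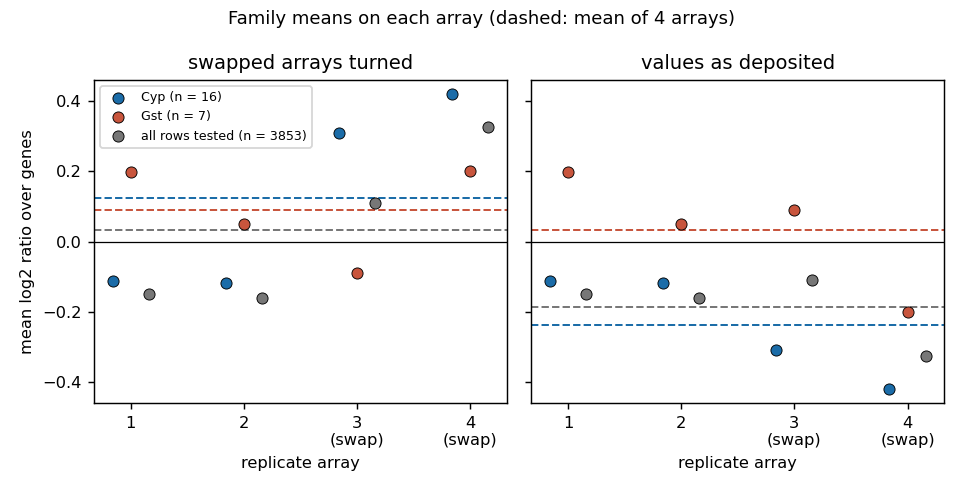
Mean log2 ratio over the tested Cyp genes (n = 16), Gst genes (n = 7) and all rows (n = 3853) on each replicate array (horizontal axis), with swapped arrays turned (left) and as deposited (right). Each mean covers only genes with a value on that array. In replicates 1 to 4 these were 12, 16, 16 and 15 Cyp genes and 7, 7, 6 and 6 Gst genes. For all rows they were 3410, 3807, 3569 and 3643. Dashed lines mark the mean of the 4 arrays. The Cyp points lie below the Gst points on replicates 1 and 2 in both panels, above them on replicates 3 and 4 on the left, and below them there on the right.

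Genes listed as working with these enzymes gave no call at an adjusted limma p of 0.05 either. For all lists below, 57.2% of all rows lay above 0, or 20.2% as deposited. Of 15 genes listed under redox partners and glutathione supply, 3 were tested (Gclm, sgll and Adh). Only sgll (0.020) lay above 0, or 2 genes as deposited. Of the 3, only Gclm fits the name of the list. Gclm, the modifier subunit of the enzyme that starts glutathione synthesis, had log2 ratios of -0.37, -0.29 and -0.40 in replicates 2 to 4, a mean of -0.35 ± 0.058 (SD, n = 3) and 0.10 ± 0.42 as deposited. It was lower with levetiracetam on all 3 arrays in the likely direction. Among other drug-handling enzymes (esterases, epoxide hydrolases, sulfotransferases and dehydrogenases), 6 of 27 were tested and 4 lay above 0, or 2 as deposited. Sodh1, a sorbitol dehydrogenase, had 1.05, 0.71, 0.61 and 0.83, a mean of 0.80 ± 0.19 (SD, n = 4), with an adjusted limma p of 0.749 and a deposited mean of 0.079 ± 0.94. Like Cyp28d1, it lay above 0 on every array in the likely direction, also with arrays centred.

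Of 18 listed transporters, 4 were tested, with a median of -0.058, or -0.19 as deposited. Only Oatp74D (0.028) lay above 0, and as deposited only a different gene, Oatp33Eb (0.47). Oatp33Eb, at -0.44 ± 0.81 (SD, n = 3), rested on replicate 4, where it was -1.37, and was 0.026 without it. Of 14 listed regulators of detoxification genes, 3 were tested and 1 lay above 0 under either reading. Their median was -0.083, or -0.027 as deposited, and the nuclear receptors Hnf4 and EcR had means of -0.12 ± 0.18 and -0.083 ± 0.11 (SD, n = 4). Of 22 listed antioxidant enzymes, 9 were tested and 4 lay above 0, with a median of -0.039, or 3 with a median of -0.13 as deposited. The peroxiredoxin Prx3 had a mean of 0.27 ± 0.12 (SD, n = 4) and was above 0 on all 4 arrays, but at -0.021 in replicate 4 with arrays centred and 0.074 as deposited. The superoxide dismutase Sod2 had a mean of -0.47 ± 0.75 (SD, n = 3), which became -0.042 once replicate 2 (-1.33) was left out. Of 10 listed genes of these families named outside the rule, 2 were tested and neither lay above 0 under either reading. The glutathione transferase of eye pigment synthesis, se, had a mean of -0.15 ± 0.35 (SD, n = 4), and -0.13 as deposited. The other was sug (-0.29), a zinc finger gene that does not belong in that list.

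Markers of the cell types in a head were set beside the families, since P450s and glutathione transferases are abundant in fat body. Of 11 fat body markers 6 were tested, 3 lay above 0 and their median was 0.0077, against 1 above 0 and a median of -0.22 as deposited. The fat body lipase bmm was at 0.46 ± 0.42 (SD, n = 4) and apolpp at -0.33 ± 0.41, against -0.28 and -0.30 as deposited. Of 7 photoreceptor markers on the array 5 were tested, 4 lay above 0 and their median was 0.15, against 0 above 0 and a median of -0.032 as deposited. The sign of the marker medians thus depended on the reading for both tissues, as did that of all rows, at 0.027 and -0.17 as deposited. Of all rows 57.2% lay above 0, or 20.2% as deposited. With arrays centred and turned, the median was -0.0013 for fat body and 0.13 for photoreceptor markers. The neuronal marker nSyb was at -0.026 ± 0.48 (SD, n = 4), and -0.35 as deposited. The 2 glial markers had a median of -0.16, the 3 muscle markers -0.070 and the 2 antennal markers -0.052, and as deposited -0.19, -0.080 and -0.16. Of the gut and testis markers, 2 and 3 on the array, none had values on 3 arrays, and 1 of 3 Malpighian tubule markers did (NaPi-T, -0.064 and -0.093 as deposited). No marker passed an adjusted limma p of 0.05, and the part of any cell type in the values of Cyp28d1 or the families was not tested.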

How the data were processed

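Log2 ratios of the 2 channels were deposited by the authors for 27648 spots on 4 spotted cDNA arrays of fly heads. Per the labels' protocols and the design text, slides were quantified in GenePix Pro 6.0 and normalized by ratio in Acuity 4.0. Spots with 3% or more saturated pixels, bad flags or a signal to noise under 2 were removed, and the authors tested with one-class SAM 3.0 and 100 permutations. A minimum intensity of 100 was also among the authors' settings. The direction of the ratio, and whether arrays were centred, are not given in the sources used here. Intensities were not used here.

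Neighbouring spots were averaged to 13824 features and features of 1 gene to a row. Of the spots, 15116 had 1 gene symbol, 102 several and 12430 none. Names came from the platform annotation, and 107 of the 108 genes matched a RefSeq gene ID. The 3853 rows with values on at least 3 arrays (2259 named genes and 1594 unnamed features) were tested with limma 3.58.1 in R 4.3.3, mean against 0, two-sided (each ratio pairs the treated and control pool of 1 set), with adjustment over all rows. The fit was tested on simulated data. The labels call the samples biological replicates.

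Every gene with 3 values could be named. Values on every array were kept for genes of 1 sign on all arrays that measured them, the 3 smallest p-values per family and genes with over 1 feature on the array, and up to 3 genes per list outside the families. Members and lists were chosen with earlier results of these data known. Alternatives were the values as deposited, centring, the median of each block of 576 spots, an orientation covariate, extreme values beyond 5 left out, single spots of a pair, rows on all 4 arrays, features singly, SAM and leaving out each array.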

Additional observations from a re-analysis of the deposited data

Results flagged for a closer look

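The mean over the Cyp genes was -0.11 on the arrays with treated RNA in Cy5 and 0.36 on those with treated RNA in Cy3, a difference of -0.48 on the log2 scale. It drew attention because both arrays of one orientation lay on one side of 0 and both arrays of the other on the opposite side. The difference was not tested. The mean over all rows had the same signs on the 4 arrays (-0.15, -0.16, 0.11 and 0.33), and with arrays centred the Cyp mean was 0.035, 0.044, 0.23 and 0.11.

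Cyp minus Gst was -0.24 on the Cy5 arrays and 0.31 on the Cy3 arrays, a difference of -0.54, singled out in the same way and likewise not tested. Centring leaves it unchanged.

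No array stood far from the other 3 in any of 19 sets of 4 values checked for this, where chance alone would flag about 0.95 at 1 in 20.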

How the results depend on the processing

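No gene of the 3 families had an adjusted p under 0.05 in any setting run. Over all rows the count was 0 in the main setting and with each array left out, and 1 with block medians subtracted or with the orientation covariate. At an unadjusted p of 0.05 the count over all rows went from 100 to 739 as deposited, 169 centred, 196 with block medians subtracted, 452 as deposited and centred (an alternative chosen after seeing the data), 248 with the orientation covariate, and 70 to 163 with 1 array left out (163 without replicate 2, 154 without replicate 4). For the 24 genes it went from 1 to 4 as deposited, 3 centred, 2 with block medians, 2 on second spots, 5 as deposited and centred, 3 with the covariate, and 1 to 3 with 1 array left out. The 44 rows called for orientation became 0 after centring and 0 with block medians. The Cyp mean was -0.24 as deposited and the Ugt gene 0.38 as deposited and centred. Cyp minus Gst lay between -0.086 and 0.15 with 1 array left out. Directions held for 16 of 24 genes in every setting other than as deposited or with an array left out, for 11 of 24 with each array left out, and for 4 of 24 in all. As deposited, 14 reversed, to -0.79 (Cyp4e2), -0.56 (Cyp9b1), -0.51 (Cyp6a18), -0.44 (Cyp304a1), -0.41 (Cyp4d8), -0.34 (Cyp6a20), -0.13 (Cyp12a4, Cyp28d1 and GstE13), -0.10 (Cyp12a5), -0.059 (Cyp4p1), -0.033 (Cyp9f2), -0.0070 (Cyp4ac1) and 0.18 (Ugt49B1). As deposited and centred, 8 reversed, to -0.61 (Cyp4e2), -0.37 (Cyp9b1), -0.34 (Cyp6a18), -0.27 (Cyp304a1), -0.23 (Cyp4d8), -0.17 (Cyp6a20), 0.0095 (GstE14) and 0.38 (Ugt49B1). Centring reversed Cyp9f2 (-0.0082) and GstE13 (-0.0032), block medians Cyp304a1 (-0.029) and GstE14 (0.0054), first spots GstD4 (-0.100), and second spots Cyp6d5 (-0.18), Cyp4d2 (-0.059), Cyp304a1 (-0.056), GstE13 (-0.0032), GstE14 (0.054) and Ugt49B1 (0.13). With 1 array left out, means ranged over -0.082 to 0.10 (Cyp4d2), -0.083 to 0.11 (GstT4), -0.076 to 0.28 (Cyp4ac1), -0.31 to 0.051 (Cyp4d21), -0.025 to 0.18 (GstD4), -0.13 to 0.15 (GstE14), -0.21 to 0.23 (Cyp304a1), -0.033 to 0.42 (Cyp4d8), -0.17 to 0.24 (Cyp6a20), -0.015 to 0.62 (Cyp9b1), -0.22 to 0.35 (Cyp9f2), -0.091 to 0.12 (GstE13) and -0.15 to 0.12 (Ugt49B1). The cause of these reversals was not tested. Signal over background was not used here, so its limit is unknown.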

Other observations

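The 19 genes with a value on a single array were Cyp or Ugt genes, and for 15 of them (78.9%) that array was replicate 2, the array with the most spots measured. Over all rows with a value on 1 array the share was 60.0% (1276 of 2125). The 15 genes had a median log2 ratio of -0.69 there and 40.0% lay below -1, against a median of -0.35 and 23.0% for all rows measured on replicate 2 only, and 2.79% for rows with values on all 4 arrays. The most extreme values among genes with 1 or 2 arrays, chosen after their values were seen, were -3.38 for Cyp6a8 on replicate 2 and 4.79 for Cyp6a23 on replicate 4, which had -0.51 on replicate 2. The Cyp6a23 values on replicates 2 and 4 came from different spot pairs, and no pair had a value on both arrays. The sign on replicate 4 is the turned one, and is the opposite as deposited. Each of these extremes was seen on 1 array, and both lie outside the range of -0.83 to 1.59 of the tested genes.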
